A study of Mus musculus with 27 samples.

Results

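The genes described here are 3 fibroblast growth factor (FGF) receptors and 7 genes that the FGF pathway switches on or that act on it: the receptors Fgfr1, Fgfr2 and Fgfr3, the inhibitors Spry1, Spry2, Spry4 and Spred1, the phosphatase gene Dusp6, and the transcription factors Etv4 and Etv5. These 10 genes were taken by name from a table of 55487 genes, through Ensembl identifiers stripped of their version. All 10 passed the filter on low counts, as did 16330 genes in all. They were measured in 27 RNA-seq libraries of the mouse optic stalk at embryonic day 14, in which each embryo gave 3 laser-captured pieces, named dorsal, ventral and axon. The question put to them was whether their levels differed between the regions of the stalk and with the loss of Smarcc1.

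The mutants were Smarcc1-DCT-cKO embryos, which carried 2 floxed alleles of Smarcc1 (Baf155 loxP/loxP), a Dct-Cre transgene and the Z/EG reporter. Smarcc1 encodes a structural subunit of SWI/SNF (BAF), a complex that remodels chromatin. The controls were littermates that lacked Dct-Cre, and all lines were kept on C57Bl6/J. The 4 control and 5 mutant embryos gave 6 region-by-genotype groups of 4 or 5 libraries each. Per the labels, batch A held 1 control and 3 mutants and batch B held 3 controls and 2 mutants. Dct-Cre is active in the pigmented lineage and in the stalk itself, whereas the retinal ganglion cells whose axons fill the axon piece lie outside that lineage. Each captured piece is a mixture of cells, so fewer cells of a type and less RNA per cell cannot be told apart.

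FGF ligands bind receptor tyrosine kinases on the cell surface, with heparan sulfate as a co-factor, and the receptors signal through RAS and the ERK kinases into the nucleus. ERK activity induces Etv4, Etv5, Dusp6 and the Sprouty genes, and several of these products then dampen the signal that induced them, so their transcripts are widely read as a record of recent pathway activity. In the eye, FGF signalling is known for its part in setting neural retina apart from pigment epithelium and for patterning the optic stalk and closing the optic fissure.

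The start regions of 7 of the 10 genes were read from RefSeq (GRCm38.p6), as 9 windows of 250 bases before to 50 after the start. The letters searched on both strands were CCGGAAG (an ETS site), TGAATGA (a shortened form of the site of the repressor CIC), TGACTCA (AP-1), TGACGTC (CRE) and GGGCGG (a GC box). A match to the CIC letters need not be a whole CIC site. Capicua, the product of Cic, is the repressor that ERK removes from several feedback genes. The shortened CIC letters occurred in 1 of the 9 windows, that of Dusp6, and in 3.75% of all 32851 windows. GC boxes occurred in 5 of 9 windows and in 35.7% of all, and the ETS, AP-1 and CRE letters in 0 of 9 windows and in 8.86%, 5.20% and 3.21% of all. Printed here is the stretch of Dusp6 around the CIC letters, the single match to those letters in the set. Beside it stands the stretch before the start of Spred1, with its GC boxes. Spred1 is the gene whose regional groups did not overlap in mutants. Capitals mark the matched letters on either strand.
Dusp6: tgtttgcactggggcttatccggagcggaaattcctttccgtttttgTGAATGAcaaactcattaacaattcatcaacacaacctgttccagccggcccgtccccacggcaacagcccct
Spred1: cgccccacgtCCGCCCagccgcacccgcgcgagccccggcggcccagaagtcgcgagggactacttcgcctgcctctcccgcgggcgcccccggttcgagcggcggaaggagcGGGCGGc
The Dusp6 stretch is chr10:99263051-99263170 on the plus strand and its matched letters begin 133 bases before the start. The Spred1 stretch is chr2:117120951-117121070 on the plus strand and ends at the base before the start that RefSeq gives, which lies upstream of the start in the GENCODE annotation used for the gene spans. A match of letters says nothing about binding in these cells.

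Depth and the check of the labels came first. The libraries held 10.9 to 34.0 M counts, so that 3 counts, taken as the floor of detection, correspond to 0.0883 to 0.275 CPM (counts per M counts of the library). The cDNA was amplified without molecular identifiers, and this floor covers counting error only. Smarcc1 itself did not overlap between genotypes in the ventral pieces, with 75.7 to 198 CPM in controls and 14.7 to 64.4 CPM in mutants (exact permutation test, p = 0.0159, n = 4 and 5). Nor did it overlap in the axon pieces, with 50.1 to 242 CPM in controls and 1.86 to 44.9 CPM in mutants (exact permutation test, p = 0.0159). In the dorsal pieces the ranges overlapped, at 75.9 to 289 CPM in controls and 2.26 to 107 CPM in mutants (exact permutation test, p = 0.103). The libraries labelled dorsal mutant 1 and dorsal mutant 2, at 94.9 and 107 CPM of Smarcc1, lay inside the dorsal control range, and dorsal results are therefore also given without these 2 libraries.

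The regions were checked against markers of the cell types they could hold. The 9 optic stalk and astrocyte progenitor markers summed to 2707 to 3607 CPM in dorsal controls and to 944 to 1815 CPM in dorsal mutants. The neuron and axon markers summed to 3080 to 6298 CPM in the axon pieces and to at most 2050 CPM elsewhere, although Tubb3 was at most at 3 counts in every axon mutant and Pou4f1 in every axon control. Markers of neighbouring tissue differed between genotypes in the dorsal pieces: 12 mesenchyme markers summed to 1162 to 11480 CPM in dorsal controls and to 55.7 to 403 CPM in dorsal mutants, while 10 pigment epithelium markers, of which Rpe65 stayed at the floor, summed to 39.5 to 5207 CPM in controls and to 3522 to 13319 CPM in mutants. The 7 retinal progenitor markers summed to 165 to 391 CPM in dorsal controls and to 425 to 1069 CPM in dorsal mutants. Like the mesenchyme sums, these did not overlap between genotypes, whereas the pigment epithelium sums did. These shifts move with every dorsal comparison of genotypes below, and their part in the results was not tested. Dorsal control 3 held both the highest mesenchyme sum, 11480 CPM, and the lowest pigment epithelium sum of the dorsal controls, 39.5 CPM. The other dorsal controls held 1162 to 3602 CPM of mesenchyme and 1617 to 5207 CPM of pigment epithelium markers.

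By the annotation of the mm10 build (GENCODE M21), Fgfr1 spans chr8:25513654-25575718 on the plus strand, Fgfr2 chr7:130162451-133123350 on the minus strand and Fgfr3 chr5:33721674-33737068 on the plus strand. Spry1 spans chr3:37639947-37644598 (plus), Spry2 chr14:105891947-105896819 (minus) and Spry4 chr18:38586247-38601415 (minus). Spred1 (ENSMUSG00000027351) spans chr2:117121374-117182279 (plus) and Dusp6 chr10:99263231-99267489 (plus). Etv4 spans chr11:101769742-101785371 (minus) and Etv5 chr16:22381309-22439719 (minus). Counts were summed over the exons of each gene.

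Compared per kilobase of exon over all 27 libraries, the 3 highest mean levels were those of inhibitors. Spry2 averaged 26.8 CPM per kb over the 27 libraries, Spred1 24.7 CPM per kb and Dusp6 22.3 CPM per kb. Spry1 followed at 14.04 CPM per kb and Etv5 at 9.89 CPM per kb. The receptors lay below them in this mean, with Fgfr1 at 6.96, Fgfr2 at 4.32 and Fgfr3 at 2.94 CPM per kb. Spry4 averaged 1.82 CPM per kb and Etv4 0.786 CPM per kb, which made Etv4 the least abundant of the 10. The order was not the same in every group: in axon controls Spry1, at 14.26 CPM per kb, lay above Dusp6, at 13.6, and in dorsal mutants Fgfr1, at 7.47, and Fgfr2, at 7.34, lay above Etv5, at 5.0 CPM per kb.

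**Figure D1:**
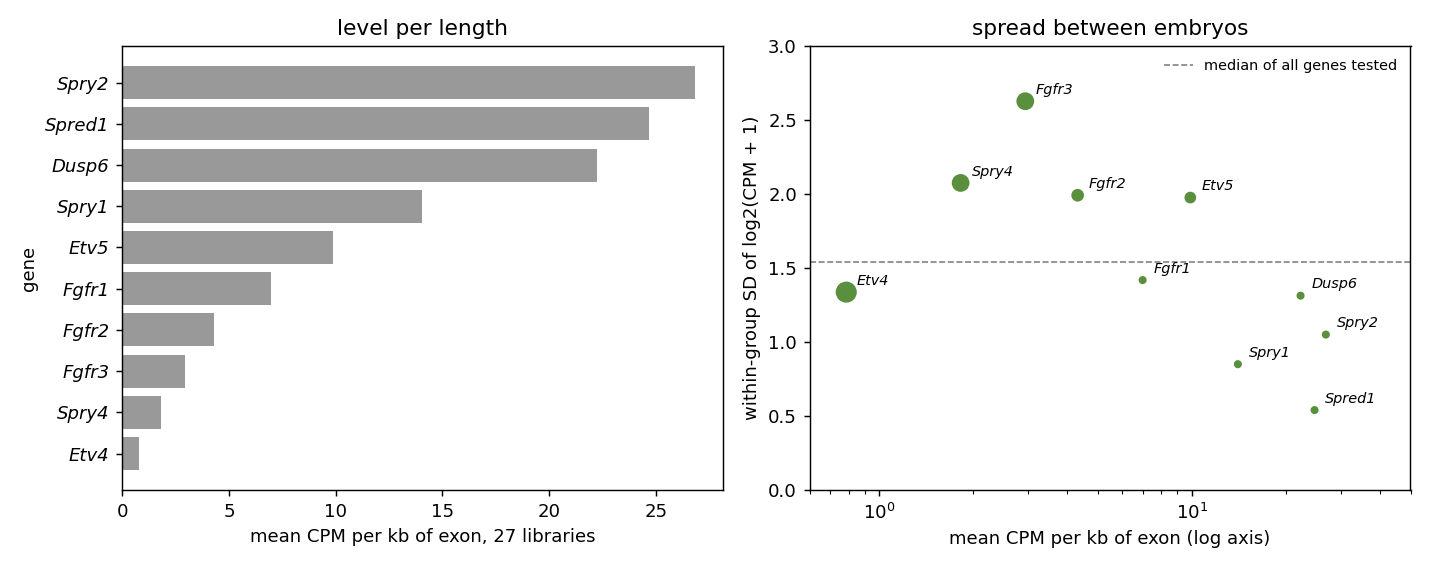
Level per length and within-group spread of the 10 genes. Left, bars give the mean CPM per kb of exon over 27 libraries; right, each point sets that mean (log axis) against the within-group SD of log2(CPM + 1), with larger points for genes at 3 counts or fewer in more libraries and a dashed line at the median of all genes tested. Spred1, at 0.541, has the smallest spread and Fgfr3, at 2.63, the largest. Each library is its own capture, so the spread between embryos named in the right panel also holds that of capture and amplification.

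Detection split the set into steady and sporadic genes. Fgfr1, Spry1, Spry2, Spred1 and Dusp6 were above 3 counts in every library. Etv5 was at or below 3 counts in 3 libraries, Fgfr2 in 4, Fgfr3 in 11, Spry4 in 11 and Etv4 in 17 of 27. The within-group SD of log2(CPM + 1) was 0.541 for Spred1, 0.851 for Spry1 and 1.05 for Spry2. This SD holds differences between embryos together with those of capture and amplification, which cannot be told apart here. It was 2.63 for Fgfr3 and 2.07 for Spry4, against a median of 1.54 over all genes that passed the filter. Etv4, at or near 0 in most libraries, had 1.34, and Fgfr1 had 1.42. For Spred1, 50.5% of the variance of log2(CPM + 1) lay between the 6 groups, compared with 38.6% for Fgfr2, 33.0% for Fgfr1 and a median of 22.6% over all genes. When the 6 groups were put in order of mean CPM for each gene, every pair of neighbours in every order overlapped in range.

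**Figure D2:**
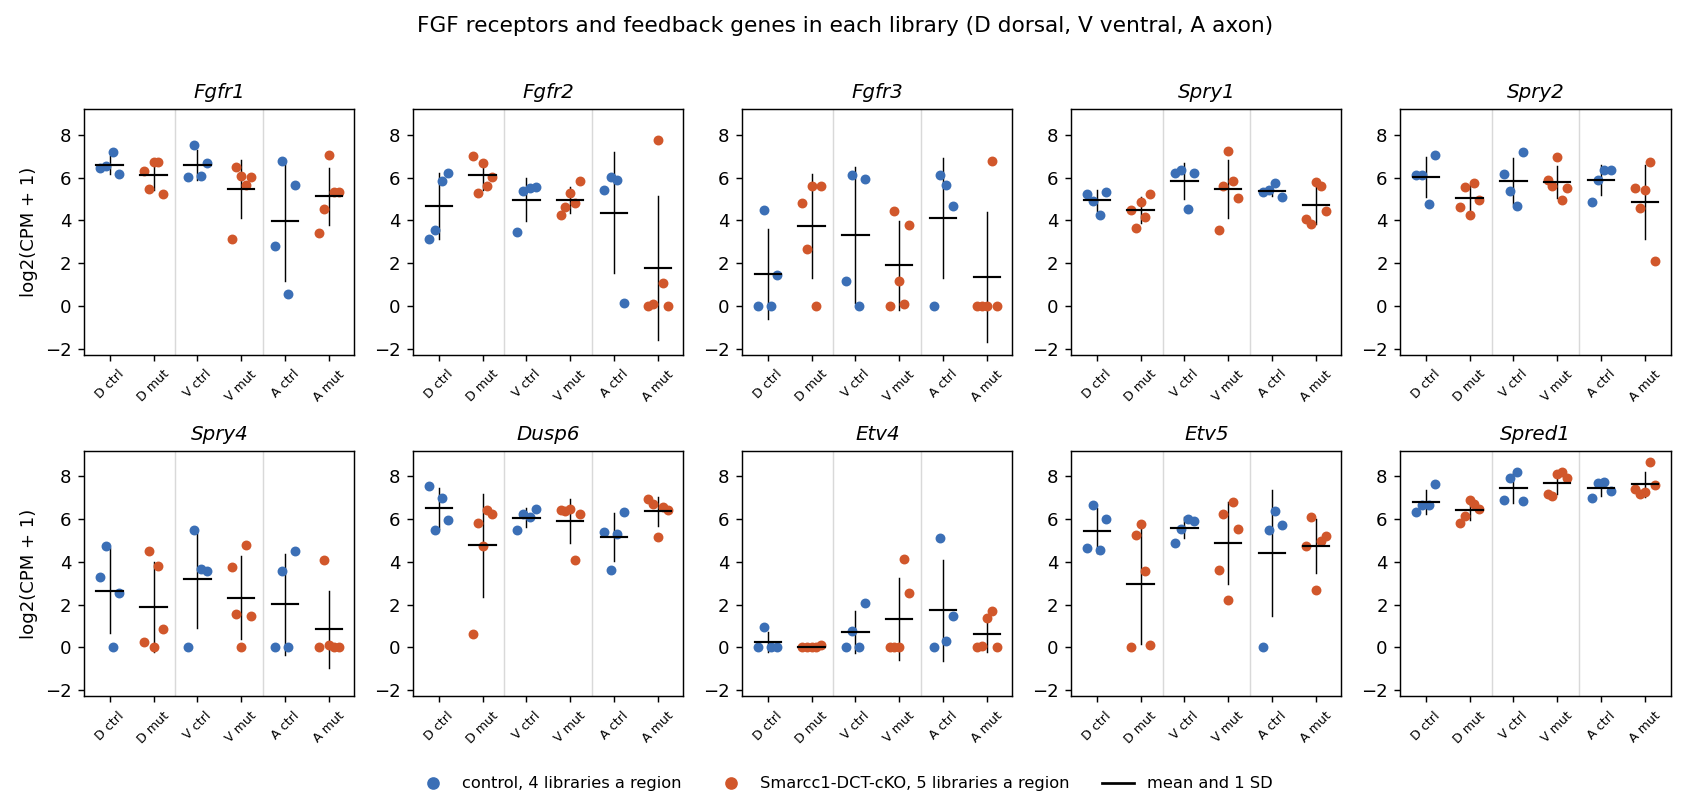
Level of each gene in each of the 27 libraries as log2(CPM + 1), in dorsal (D), ventral (V) and axon (A) pieces of 4 control and 5 mutant embryos; bars give the mean and 1 SD. Control and mutant points overlap for every gene in every region, while Fgfr3, Spry4 and Etv4 lie at 0 in many libraries.

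No gene of the set was called between the genotypes in any region. edgeR's quasi-likelihood test called 0 of the 10 in dorsal, ventral and axon pieces (a call needed an adjusted p below 0.05 with a log2 fold change beyond 0.58 either way), where it called 2 of 16145 genes (0.0124%), 0 of 16139 (0.0%) and 0 of 14977 (0.0%) in all. At an unadjusted p under 0.05, 0 of the 10 passed in each region, beside 5.35%, 3.19% and 3.55% of all genes. The 2 genotypes overlapped for all 10 genes in all 3 regions, and over all genes 2.92%, 1.23% and 1.28% did not overlap. By the exact permutation test 0 of the 10 had a p under 0.05 in each region, beside 7.66%, 4.12% and 4.91% of all genes. Nor did edgeR call any of the 10 in the 6 comparisons of regions within a genotype or in the 3 differences of the mutant effect between regions. There it called 0.0% of all genes for dorsal against ventral, 0.0692% for dorsal against axon and 0.0316% for ventral against axon controls, and 0.0%, 0.545% and 0.443% in mutants. For the differences of effects it called 0.00612% (dorsal and ventral), 0.0245% (dorsal and axon) and 0.00612% (ventral and axon).

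DESeq2 called 0 of the 10 in dorsal and ventral pieces and 1 in axon pieces, described with Spry4 below. In dorsal pieces 2 of the 10 fold changes were positive, with a median log2 fold change of -0.40 beside -0.04 over all genes. In ventral pieces 5 of 10 were positive with a median of 0.06, beside -0.08 over all genes. In axon pieces 5 of 10 were positive with a median of -3.95e-04, beside -0.29. Fgfr3 and Etv5 were among these 5, although their mean CPM in axon pieces was lower in mutants than in controls.

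**Figure D3:**
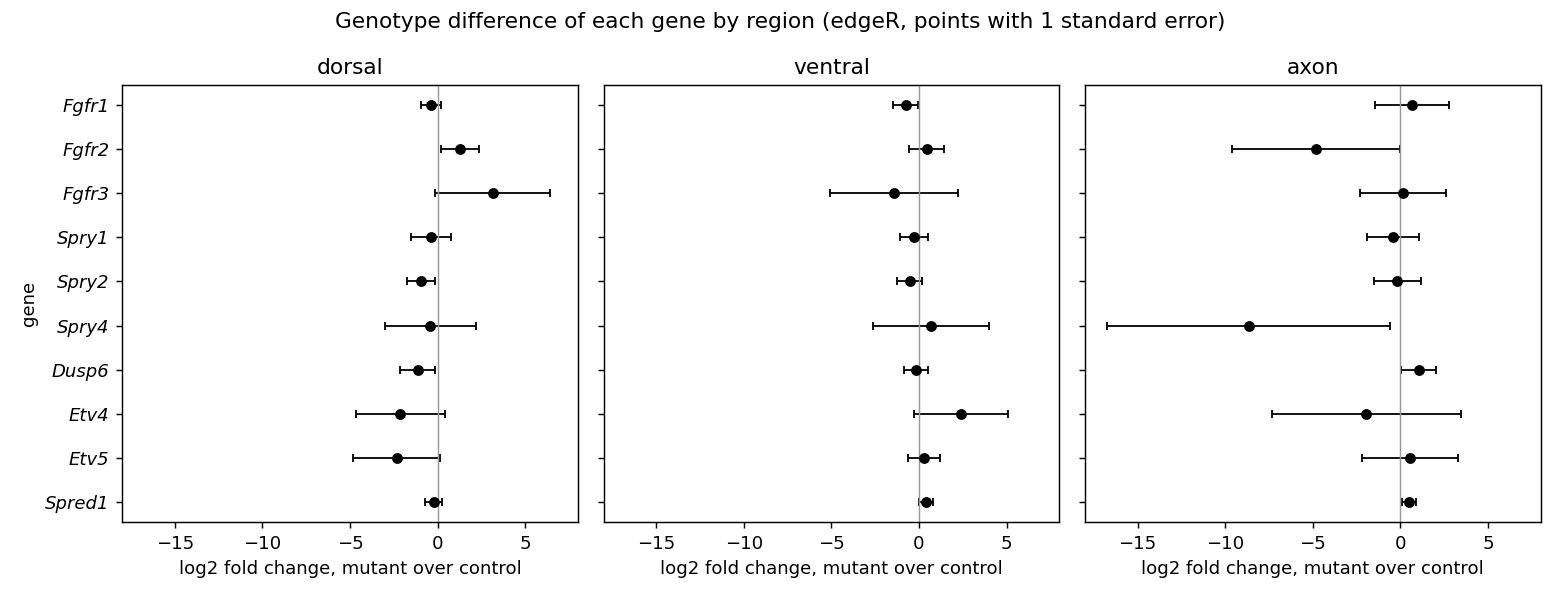
Log2 fold change of each gene, mutant over control, in the 3 regions, from edgeR with batch as a term; points are estimates and bars 1 approximate standard error. The widest bars belong to genes that are absent from many libraries, such as Spry4 in axon pieces at -8.67 with a standard error of 8.08.

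Among the receptors, Fgfr1, the broadly expressed receptor of neural progenitors, was the most abundant per kb. In dorsal pieces its level was 85.9, 90.5, 144 and 70.9 CPM in the 4 controls and 78.5, 43.6, 106, 104 and 36.6 CPM in the 5 mutants. In ventral pieces it was 63.5, 182, 66.0 and 103 CPM in controls and 7.62, 88.8, 67.0, 48.7 and 63.5 CPM in mutants. Every dorsal and ventral library thus expressed the gene, with ventral mutant 1 far below the others. In axon pieces the controls spread from 0.477 to 110.0 CPM and the mutants from 9.44 to 129.8 CPM, a range wider than any difference between group means. The log2 fold change, mutant over control, was -0.38 ± 0.58 (SE) in dorsal, -0.76 ± 0.73 in ventral and 0.67 ± 2.11 in axon pieces, with unadjusted p of 0.521, 0.321 and 0.756 (edgeR, adjusted p of 1, 0.999 and 1).

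Fgfr2, whose product is among the receptors that act in optic stalk and fissure development, had its highest group mean in dorsal mutants, 75.9 ± 37.9 CPM (SD, n = 5). In that group it was 129, 37.6, 100.4, 48.2 and 64.3 CPM, while the dorsal controls had 7.73, 10.7, 55.5 and 72.4 CPM. Controls 1 and 2 were low and controls 3 and 4 were within the range of the mutants. The genotype difference in dorsal pieces, a log2 fold change of 1.29 ± 1.09 (SE), was not past the test (edgeR, adjusted p = 1). Ventral pieces held 9.86, 39.7, 43.9 and 46.4 CPM in controls and 18.1, 23.2, 37.4, 26.9 and 56.1 CPM in mutants. Within mutants, dorsal Fgfr2 exceeded ventral Fgfr2 by a log2 fold change of 1.24 ± 0.56 at an unadjusted p of 0.0439 (edgeR, adjusted p = 0.384). The same contrast in controls gave 0.05 ± 1.14, and the difference between these contrasts was not past the test (edgeR interaction, adjusted p = 1). Of the exonic bases of Fgfr2, 3.04% are shared with Ctbp2 on the same strand.

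In axon pieces Fgfr2 was either well detected or near the floor. Controls 1 to 3 had 41.3, 64.1 and 57.5 CPM and control 4 had 0.0916 CPM. Among the mutants, replicate 3 had 212 CPM and the others 0, 0.0426, 1.11 and 0 CPM. Both genotypes thus held libraries at or near 0, and the log2 fold change of -4.82 ± 4.81 was not past the test (edgeR, adjusted p = 0.914). Without mutant 3, the unadjusted p was 0.0339, the only one of the 9 single-library omissions below 0.05, at an adjusted p that stayed above 0.05. With batch left out of the fit the log2 fold change was 0.09. The lowest dorsal or ventral value of Fgfr2 was 7.73 CPM, whereas 4 of the 9 axon libraries were at 3 counts or fewer.

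Fgfr3, which is a marker of astrocyte precursors in the developing central nervous system, was at 3 counts or fewer in 11 of 27 libraries. It was detected in every group, but in no group in every library. In dorsal controls it was 0, 21.2, 0 and 1.68 CPM, and in dorsal mutants 26.9, 5.25, 47.6, 0 and 48.1 CPM. In ventral controls it was 1.23, 67.9, 0 and 60.3 CPM, and in ventral mutants 0, 20.5, 1.24, 0.0697 and 12.8 CPM. In axon pieces 3 of 4 controls had 24.4 to 69.1 CPM and control 1 had 0, whereas 4 of 5 mutants were at 0 and mutant 4 had 110.0 CPM. The group means were thus set by which libraries held the transcript at all. The fold changes carried errors larger than themselves, with 3.14 ± 3.28 in dorsal, -1.43 ± 3.65 in ventral and 0.17 ± 2.45 in axon pieces (edgeR, adjusted p of 1, 0.999 and 1). Of its exonic bases, 13.9% lie opposite the antisense gene G630022F23Rik, which drew 12 counts over all libraries.

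The Sprouty proteins are cytoplasmic inhibitors that ERK signalling induces and that block the route from receptor to RAS. Spry2, the most abundant per kb of the 3 Sprouty genes in the set, had 67.7, 68.5, 26.1 and 129.9 CPM in dorsal controls and 23.9, 46.0, 18.2, 52.8 and 29.4 CPM in dorsal mutants. Except for control 3, the dorsal controls lay above all dorsal mutants. Control 3 was also the dorsal control whose marker sums stood apart, and the part of this was not tested. The group means were 73.1 ± 42.8 (SD, n = 4) and 34.0 ± 14.8 CPM (SD, n = 5). This difference, a log2 fold change of -0.96 ± 0.80, was not past the test (edgeR, adjusted p = 1), and its exact permutation p of 0.0952 was, with that of Dusp6 in axon pieces, the smallest of the 30 genotype tests of these genes (0.744 and 0.939 after adjustment over all genes). No gene at all had an adjusted permutation p below 0.450 in dorsal or 0.939 in axon pieces, so the adjusted values decide nothing here. Ventral controls spanned 24.5 to 145 CPM and ventral mutants 29.7 to 123 CPM. Axon controls spanned 28.0 to 81.8 CPM and axon mutants 3.33 to 104 CPM, so the ranges nested in both regions. The dorsal mutants were therefore the lowest of the 6 groups in mean, without separating from any of them.

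Spry1 was the steadier Sprouty gene. Its level in dorsal controls was 36.9, 28.6, 17.8 and 39.6 CPM, and in dorsal mutants 21.7, 11.5, 27.8, 16.6 and 36.5 CPM. Ventral controls 1, 2 and 4 lay close together at 74.1, 79.4 and 74.2 CPM, and control 3 had 22.4 CPM. Ventral mutants had 10.7, 47.0, 152, 56.5 and 31.8 CPM, a spread that covered the whole control range. In axon pieces the 4 controls stayed within 33.3 to 52.1 CPM and the mutants ran from 12.96 to 54.5 CPM. The genotype fold changes were -0.38 ± 1.13, -0.29 ± 0.81 and -0.40 ± 1.49 on the log2 scale in dorsal, ventral and axon pieces (edgeR, adjusted p of 1, 0.999 and 1). Dorsal pieces had the lower mean than ventral pieces in both genotypes, with a log2 fold change of -1.03 ± 0.85 in controls (edgeR, adjusted p = 1) and of -1.39 ± 0.76 in mutants (edgeR, adjusted p = 0.551). Of its exonic bases, 24.4% lie opposite the antisense gene Gm42922, which drew 20 counts over all libraries.

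Spry4 was sparse. It was above 3 counts in 16 libraries, and its highest value was 44.5 CPM in ventral control 2. In axon pieces it had 0, 10.7, 0 and 22.03 CPM in controls and 0, 15.8, 0.0680, 0 and 0 CPM in mutants. One or more libraries of every group were at 3 counts or fewer, and the genotypes overlapped everywhere. The edgeR fit in axon pieces gave a log2 fold change of -8.67 ± 8.08 (adjusted p = 0.911). DESeq2 called the same difference, with a log2 fold change of -10.57 and an adjusted p of 0.0221, although mutant 2 lay above control 2. With batch left out of the edgeR fit the value was -1.28. Over batch A alone, which holds 1 axon control, it was 9.60, and this was the single alternative of 19 with the other sign. Without mutant 4, or without mutant 5, it was -0.48. Over the settings tried, 0 to 1233 genes of all were called between genotypes in axon pieces.

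Spred1 encodes a membrane-associated inhibitor that, together with neurofibromin, restrains RAS. It was the single gene of the 10 for which whole groups separated, between regions of the mutant stalk, although edgeR did not call it after adjustment. Dorsal mutants had 54.7, 69.6, 119, 105 and 88.5 CPM. Ventral mutants had 144, 134, 276, 291 and 239.8 CPM, and axon mutants had 171, 144, 155, 403 and 189 CPM. All 5 dorsal values lay below all 5 ventral and all 5 axon values. The mean was 87.3 ± 25.9 CPM in dorsal, 217 ± 73.9 CPM in ventral and 212 ± 108 CPM in axon mutants (SD, n = 5 each), a ratio of means of 2.48 for ventral over dorsal and of 2.43 for axon over dorsal.

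The edgeR test ranked dorsal against ventral Spred1 in mutants at 64 of 16168 genes by p, with a log2 fold change of -1.29 ± 0.32 (SE), an unadjusted p of 0.00132 and adjusted p = 0.329. This comparison called 0 genes by edgeR in all (0.0%), 12.4% of all genes had an unadjusted p under 0.05, and 0.928% of all genes lay wholly lower in the dorsal mutants. For dorsal against axon the log2 fold change was -1.45 ± 0.42, with an unadjusted p of 0.00346 and an adjusted p of 0.177. There edgeR called 86 genes (0.545%), 23.5% of genes had an unadjusted p under 0.05, and 1.06% lay wholly lower in the dorsal mutants. At an unadjusted p under 0.05 there were 3 of the 10 genes (Spred1, Etv4 and Fgfr2) in the first comparison and 2 (Spred1 and Etv4) in the second. Spred1 was the only gene of the 10 whose groups did not overlap, in both comparisons. DESeq2 called Spred1 in both, at adjusted p = 0.00712 and 0.0374, and edgeR with all 27 libraries in 1 model called dorsal against axon at adjusted p = 0.0495. Over the settings tried, 0 to 460 genes of all were called in dorsal against ventral mutants. For dorsal against axon mutants the count ran from 42 to 1571. With any single library left out the unadjusted p stayed between 8.05e-04 and 0.00464 for dorsal against ventral and between 0.00240 and 0.0197 for dorsal against axon, and the adjusted p stayed above 0.05.

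Since the groups did not overlap, the order of Spred1 was the same within each batch, and the values give its size there. In batch A the 3 dorsal mutants averaged 81.1 CPM (54.7 to 119) and the 3 ventral mutants 184 CPM (134 to 276). In batch B the 2 dorsal mutants averaged 96.7 CPM (88.5 to 105) and the 2 ventral mutants 266 CPM (239.8 to 291). The axon mutants averaged 156 CPM (144 to 171) in batch A and 296 CPM (189 to 403) in batch B. The dorsal control libraries, with their mesenchyme markers, take no part in these comparisons, but the dorsal mutants also held fewer counts of the optic stalk markers (944 to 1815 CPM) than the ventral mutants (2616 to 4510 CPM) and more of the pigment epithelium markers (3522 to 13319 against 723 to 4246 CPM). Against the axon mutants, the dorsal mutants likewise held fewer counts of the optic stalk markers (944 to 1815 against 3442 to 4872 CPM). The pigment epithelium markers were higher in the dorsal mutants (3522 to 13319 against 375 to 1283 CPM). The mesenchyme markers were lower there (55.7 to 403 against 629 to 2331 CPM). So were the neuron and axon markers (385 to 1152 against 3804 to 6298 CPM). The part of these markers in the Spred1 difference was not tested.

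In controls Spred1 was 79.1, 98.5, 99.8 and 195 CPM in dorsal, 118, 244, 293 and 112 CPM in ventral, and 126, 206, 208 and 159 CPM in axon pieces. Dorsal controls 1 to 3 lay below every ventral and axon control, and dorsal control 4 lay among them. The contrasts had the direction seen in mutants but were not past the test, with a log2 fold change of -0.74 ± 0.46 for dorsal against ventral (edgeR, adjusted p = 0.83) and of -0.78 ± 0.45 for dorsal against axon (edgeR, adjusted p = 0.492). The mutant contrast was not shown to differ from the control contrast, since the interaction was -0.56 ± 0.51 for dorsal against ventral (edgeR, adjusted p = 1) and -0.59 ± 0.52 for dorsal against axon (edgeR, adjusted p = 0.896). Between genotypes the log2 fold change was -0.23 ± 0.49 in dorsal, 0.40 ± 0.39 in ventral and 0.49 ± 0.40 in axon pieces (edgeR, adjusted p of 1, 0.999 and 0.911). These were the smallest standard errors of the 10 genes in each region.

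**Figure D4:**
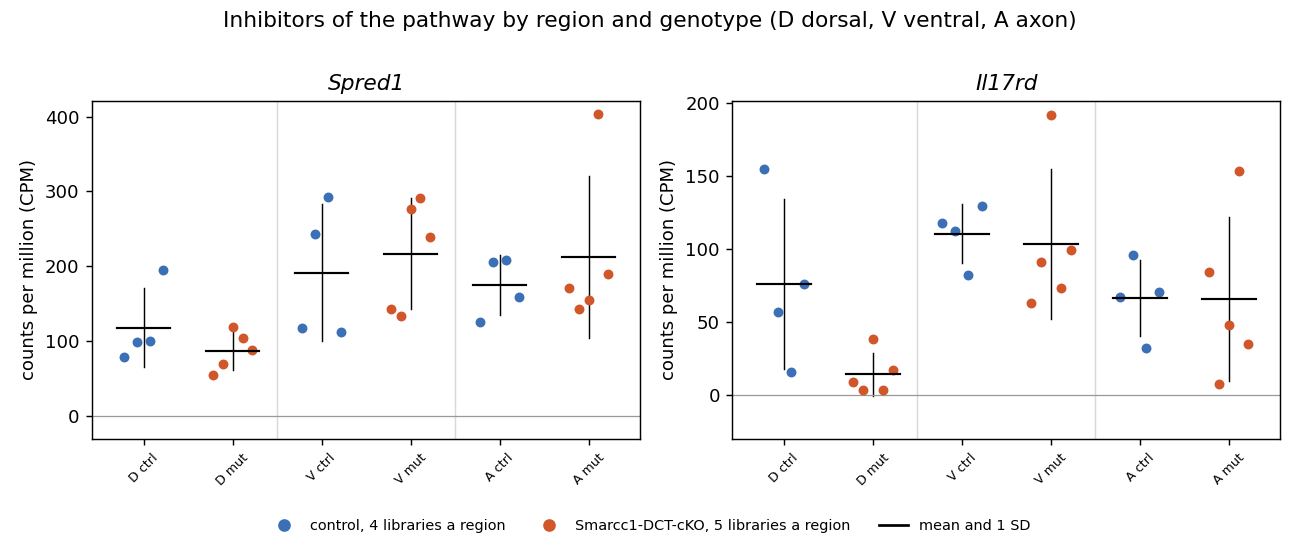
CPM of Spred1 (left) and of Il17rd (right), both inhibitors of the pathway, in each library of the dorsal (D), ventral (V) and axon (A) pieces; bars give the mean and 1 SD of 4 controls or 5 mutants. The dorsal mutants sit below all ventral mutants for both genes, at 54.7 to 119 against 134 to 291 CPM for Spred1 and at 2.90 to 38.5 against 62.5 to 191 CPM for Il17rd. Il17rd was singled out after its values had been seen, and 0.928% of all genes lay wholly lower in dorsal than ventral mutants.

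Dusp6 encodes the cytoplasmic phosphatase that inactivates ERK, and it is among the most used readouts of FGF activity in embryos. In dorsal controls it was 188, 43.4, 127 and 60.5 CPM and in dorsal mutants 0.550, 55.6, 25.5, 84.1 and 73.8 CPM. Dorsal mutant 1 was almost without the transcript, while mutants 2, 4 and 5 lay within the control range. Ventral controls had 43.5, 73.4, 67.3 and 89.0 CPM and ventral mutants 85.4, 81.4, 86.4, 15.9 and 75.4 CPM, so apart from mutant 4 the ventral mutants lay together near the top of the control range. In axon pieces the direction of the means was the opposite of the dorsal one, with 41.5, 11.3, 38.5 and 79.2 CPM in controls and 120.0, 104, 35.2, 92.6 and 84.4 CPM in mutants. There 4 of 5 mutants lay above every control.

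None of these Dusp6 differences was past the test. The log2 fold change was -1.14 ± 0.98 in dorsal pieces (edgeR, adjusted p = 1), -0.16 ± 0.70 in ventral pieces (edgeR, adjusted p = 0.999) and 1.04 ± 1.02 in axon pieces (edgeR, adjusted p = 0.912). The exact permutation p in axon pieces was 0.0952. The dorsal effect minus the axon effect was -2.16 ± 1.22 (edgeR interaction, adjusted p = 0.546). Without an embryo in turn its unadjusted p ran from 0.0617 to 0.200.

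Etv5 and Etv4 encode related ETS transcription factors of the PEA3 group, which FGF signalling induces. Etv5 was the more abundant per kb. In dorsal controls it was 23.7, 99.9, 22.1 and 63.1 CPM, and in dorsal mutants 0, 37.6, 54.1, 10.9 and 0.0665 CPM. Dorsal mutants 1 and 5 thus lacked the transcript, and mutants 2 and 3 lay inside the control range. Ventral controls stayed within 28.9 to 62.3 CPM, and ventral mutants spread from 3.62 to 112 CPM. In axon pieces control 1 was at 0 and the others at 43.9 to 83.3 CPM, with mutants at 5.44 to 67.0 CPM. The log2 fold changes were -2.33 ± 2.49, 0.28 ± 0.89 and 0.56 ± 2.76 in dorsal, ventral and axon pieces (edgeR, adjusted p of 1, 0.999 and 1). The axon value was positive although the mutant mean, 32.7 CPM, lay below the control mean of 44.8 CPM. The fit holds a batch term, and the control at 0 was the single axon control of batch A. In batch B the axon mutants averaged 32.9 CPM and the controls 59.7 CPM.

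Etv4 was at or below 3 counts in 17 of 27 libraries. It passed the floor in 1 of 9 dorsal libraries, control 2 at 0.931 CPM. Ventral control 2 had 0.686 CPM and ventral control 4 had 3.17 CPM, while ventral mutants 4 and 5 had 16.7 and 4.90 CPM and the other ventral libraries 0. In axon pieces control 2 had 33.5 CPM, the highest value of the gene, and the remaining libraries 2.28 CPM or less. All 5 dorsal mutants were at the floor, and the ventral mutant mean of 4.33 CPM was at least 20.2-fold higher than the mean floor of 3 counts per library in the dorsal mutants. This contrast had an unadjusted p of 0.0314 and the dorsal against axon one a p of 0.0426 (edgeR, adjusted p of 0.381 and 0.195), although 3 of 5 ventral mutants were at 0 as well. The axon mutants had 0, 0.0426, 1.56, 2.28 and 0 CPM. Their mean was at least 3.62-fold higher than the same dorsal floor.

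Dorsal mutants were also the lowest of the 6 groups in mean CPM for Spry1, Spry2, Etv4, Etv5 and Spred1, that is for 5 of the 7 inhibitors and targets. Dorsal controls in turn were the highest group for Spry2, Dusp6 and Etv5. Neighbouring groups in these orders overlapped in range, though for Spred1 the dorsal mutants lay wholly below the ventral and axon mutants. None of the 7 genes was past the test between dorsal genotypes. How many of all genes share either order was not counted, so the number is not read as a trait of the set. Etv4 was at the floor in every dorsal mutant, and Etv5 was at most at 1 count in dorsal mutants 1 and 5. Beside these orders stands the shift of markers described above, in which dorsal controls held more mesenchyme and dorsal mutants, in mean, more pigment epithelium transcripts.

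Leaving out dorsal mutants 1 and 2, a choice made after their Smarcc1 levels had been seen, made no difference to the calls: 0 of the 10 genes were called in any dorsal comparison. Between dorsal genotypes the log2 fold change was then -1.12 ± 0.92 for Spry2 (edgeR, adjusted p = 0.937), -0.69 ± 0.79 for Dusp6 (edgeR, adjusted p = 1), -2.28 ± 2.21 for Etv5 (edgeR, adjusted p = 0.983) and -0.10 ± 0.53 for Spred1 (edgeR, adjusted p = 1). Each of these 4 estimates moved by less than 1 standard error. For Spred1 the 3 remaining dorsal mutants gave log2 fold changes of -1.04 ± 0.35 against ventral mutants (edgeR, unadjusted p of 0.0124, adjusted p = 0.614) and -1.15 ± 0.48 against axon mutants (edgeR, unadjusted p of 0.0337, adjusted p = 0.245). For dorsal against ventral mutants, Etv4 and Fgfr2 kept fold changes of similar size, at -7.15 and 1.14 on the log2 scale, with an unadjusted p of 0.117 and 0.115 (edgeR).

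Other genes of the pathway, from 4 lists chosen by role, gave the set its surroundings. Of 18 FGF ligand genes 8 passed the filter, as did 23 of 26 other receptors, co-receptors and heparan sulfate genes, all 24 signal transducers and 12 of 13 further feedback and target genes. edgeR called 0 of them between genotypes in each region. At an unadjusted p under 0.05, 3 were higher and 2 lower of 66 tested in dorsal mutants, 0 of 67 passed in ventral mutants, and 3 were higher and 1 lower of 64 in axon mutants, beside 5.35%, 3.19% and 3.55% of all genes in either direction. The median log2 fold change over these lists was -0.13 in dorsal, 0.03 in ventral and 0.10 in axon pieces, beside -0.04, -0.08 and -0.29 over all genes.

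Among the ligands, Fgf15, which retinal and forebrain progenitors express, was 5.32, 0, 0 and 0 CPM in dorsal controls and 0, 1046, 0, 38.9 and 35.0 CPM in dorsal mutants. In ventral pieces it was 116, 14.9, 0 and 19.0 CPM in controls and 1.09, 846, 0, 27.1 and 48.7 CPM in mutants. In axon pieces 3 of 4 controls had 106 to 295 CPM and control 1 had 2.00 CPM, against 5.55, 0, 0, 49.8 and 0 CPM in mutants. Mutant number 2 was thus far above all others in both dorsal and ventral pieces, and mutants 1 and 3 lacked the transcript in dorsal pieces. Dorsal mutant 2 was also the highest dorsal library in the sum of the retinal progenitor markers, at 1069 CPM, and the part of these cells in the Fgf15 values was not tested. The dorsal genotype difference had an unadjusted p of 0.0210 (edgeR, log2 fold change 8.0 ± 2.89, adjusted p = 0.918). DESeq2 gave this contrast an adjusted p of 4.90e-18, from a group in which 2 of 5 libraries were at 0.

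Among the further feedback genes, the inhibitor gene Il17rd, also known as Sef, was 155, 56.7, 15.6 and 75.9 CPM in dorsal controls and 8.62, 3.46, 38.5, 2.90 and 16.9 CPM in dorsal mutants. Controls 1, 2 and 4 lay above every mutant and control 3, the dorsal control whose marker sums stood apart, did not. The log2 fold change was -2.63 ± 1.08 (edgeR, unadjusted p of 0.0313, adjusted p = 0.918). Phlda1, an ERK-responsive gene, did not overlap between dorsal genotypes, with 16.8, 41.3, 84.3 and 11.8 CPM in controls and 0, 0.715, 0, 6.28 and 0.997 CPM in mutants (edgeR, log2 fold change -4.64 ± 1.91, unadjusted p of 0.0323, adjusted p = 0.918). Flrt2, from the same lists, also lay wholly lower in dorsal mutants. Over all genes, 1.61% lay wholly lower in dorsal mutants. In the other regions, Mapk3 lay wholly higher in ventral mutants and Hs6st2 wholly lower in axon mutants. Of all genes, 1.23% in ventral and 1.28% in axon pieces did not overlap in either direction. Spry3, a further Sprouty gene, was at 0 in all 4 dorsal controls and had 58.4, 21.2, 0, 19.0 and 0.199 CPM in dorsal mutants. The mutant mean was at least 115-fold higher than the floor of the controls (edgeR, unadjusted p of 0.0158, adjusted p = 0.918). Mutant 3 was at 0 and mutant 5 at the floor. The 2 highest values were those of mutants 1 and 2, whose Smarcc1 level lay inside the dorsal control range. DESeq2 called Phlda1 at adjusted p = 0.0267 and Spry3 at adjusted p = 0.00626. Over the settings tried, 0 to 532 genes of all were called between dorsal genotypes. Gpc2, a glypican gene, also had an unadjusted p of 0.0433 in this comparison, at a mutant mean of 0.809 CPM.

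In axon pieces the mutants were higher for Fgf2, at 8.93, 0, 10.7, 1.40 and 9.14 CPM, for the syndecan gene Sdc3, at 107, 88.0, 0, 0 and 1.60 CPM, and for the ERK phosphatase gene Dusp9, at 0, 3.84, 0, 0 and 10.2 CPM, each against controls that were all at 0. Their unadjusted p values were 0.0301, 0.0320 and just under 0.05 (edgeR, adjusted p = 0.880 each). The ERK phosphatase gene Dusp5 was 15.1, 0, 2.56 and 0 CPM in axon controls and 0 in all 5 axon mutants (edgeR, unadjusted p of 0.0308, adjusted p = 0.880). For each of these 4 genes at least 1 library of the higher group was at 0 too. Without dorsal mutants 1 and 2, the dorsal genotype difference on the log2 scale was 10.4 for Fgf15, -2.18 for Il17rd, -4.69 for Phlda1 and 8.75 for Spry3, with unadjusted p of 0.0741, 0.0750, 0.0748 and 0.0635 (edgeR, adjusted p = 0.889 each).

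From the same lists, 2 genes of the comparison of dorsal with ventral pieces are given here, singled out after their values had been seen. Other listed genes separated too. In mutants, Flrt2 and Sulf2 lay wholly higher in dorsal than in ventral pieces. In controls, Sulf1, Spred2, Phlda1 and Ier3 lay wholly higher in dorsal pieces and Nras wholly lower. Il17rd was lower in dorsal than in ventral mutants without overlap, at 2.90 to 38.5 against 62.5 to 191 CPM, with a log2 fold change of -2.88 ± 0.75 (edgeR, unadjusted p of 0.00180, adjusted p = 0.341). DESeq2 gave that contrast an adjusted p of 0.00441. Of all genes, 0.928% lay wholly lower in the dorsal than in the ventral mutants. Gpc3, which encodes a glypican that carries heparan sulfate, was higher in dorsal than ventral pieces of both genotypes without overlap, as 1.32% of all genes were in controls and 0.606% in mutants. Dorsal controls had 149.9, 123, 551 and 196 CPM and ventral controls 68.5, 23.8, 48.6 and 64.9 CPM, and dorsal mutants had 320.0, 288, 598, 263 and 369 CPM against 68.0, 124, 87.3, 7.88 and 42.7 CPM in ventral mutants. The log2 fold change was 2.32 ± 0.58 in controls (edgeR, unadjusted p of 0.00177, adjusted p = 0.615) and 2.48 ± 0.53 in mutants (edgeR, unadjusted p of 3.64e-04, adjusted p = 0.181).

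**Figure D5:**
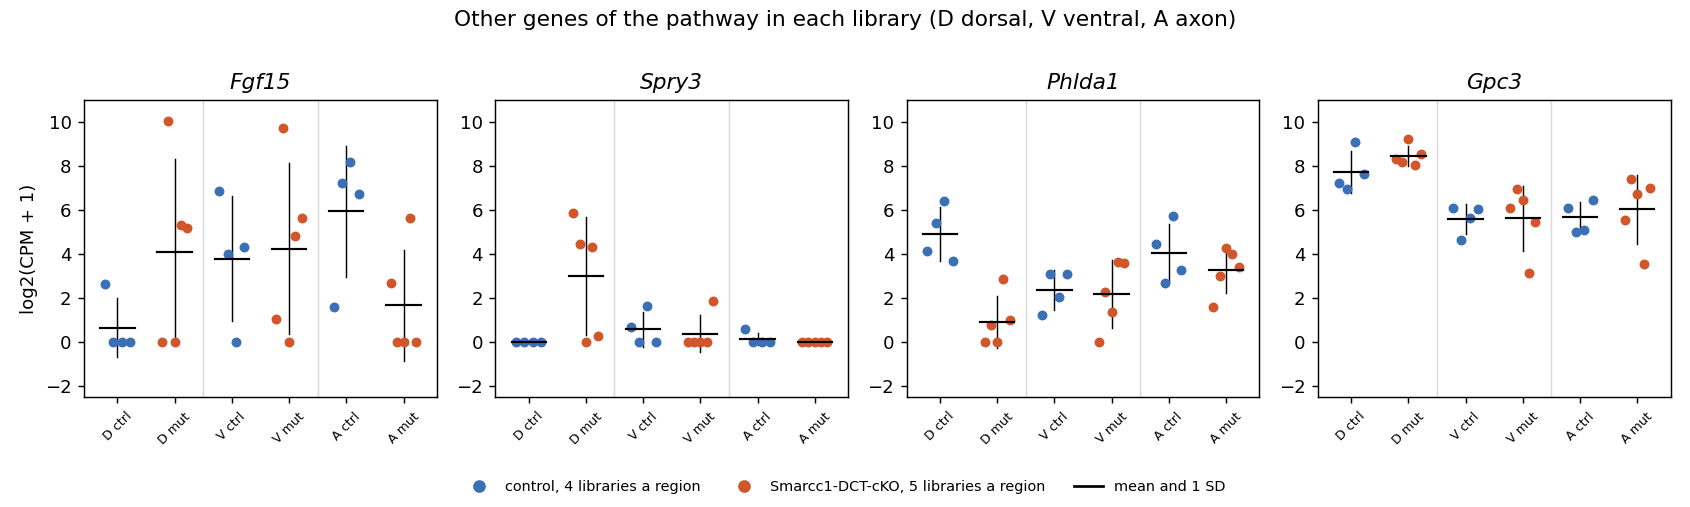
Level of 4 other pathway genes in each library as log2(CPM + 1), in dorsal (D), ventral (V) and axon (A) pieces; bars give the mean and 1 SD of 4 controls or 5 mutants. Fgf15 and Spry3 are at 0 in many libraries, Phlda1 does not overlap between dorsal genotypes, and Gpc3 is higher in dorsal than in ventral pieces of both genotypes.

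Genes whose log2(CPM + 1) followed a member most closely over the 27 libraries were listed as a description, since these libraries share depth and region effects. Fgfr1 was most like Usp4 (Pearson r = 0.801) and Fgfr2 most like Vldlr (r = 0.800), while Fgfr3 was closest to Ttc39c (r = 0.730). Spred1 was closest to Kcnq3 (r = 0.744), Synm (r = 0.735) and Ptn (r = 0.735). Spry1 was closest to Fam84a (r = 0.720), Spry2 to Pex19 (r = 0.708), Spry4 to Gpn2 (r = 0.750), Dusp6 to Clptm1l (r = 0.703) and Etv5 to Farp1 (r = 0.692). For Etv4 the closest gene was Prx (r = 0.880), in a comparison in which most libraries of Etv4 are at 0. Within the set, after group means were removed, the correlation between members over the 27 libraries was highest for Fgfr1 with Etv4, at 0.547, and for Spry4 with Etv5, at 0.456.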

How the data were processed

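RNA was amplified from laser-captured pieces of fresh-frozen heads (Geo-seq, without molecular identifiers) and sequenced as single-end reads. The authors' pipeline aligned the reads to mm10 with STAR and counted them per gene with HTSeq, per the study's methods; versions, annotation and strand setting were not given in the sources used here. The authors deposited raw counts, and only these were used. CPM are counts per M counts of a library. The counts of the embryonic day 14 libraries were tested with edgeR 4.0.16 (quasi-likelihood F-test, TMM normalisation, R 4.3.3) after genes were dropped unless 3 or more of the 27 libraries held over 10 counts, which left 16330, with Benjamini-Hochberg adjustment over all genes tested. Calls needed an adjusted p below 0.05 with a log2 fold change beyond 0.58 either way. Genotypes were compared within a region over 9 libraries with batch as a term, regions within a genotype without covariate, and differences of effects over all libraries with batch. Standard errors were derived from the F statistic and are approximate. Regions come from the same embryos, which the regional tests treat as independent. Exact permutation tests (two-sided, log2(CPM + 1)) had 0.00794 as their smallest p. DESeq2 1.42.0, limma 3.58.1 voom, other scalings and filters, the replicate block, single batches and omission of each library were alternatives, and the fits were tested on simulated data. Symbols came from GENCODE M21 for 55227 identifiers, and 260 did not match. The named pathway genes are the up to 3 higher and 3 lower with the smallest unadjusted p under 0.05 in each genotype comparison. Those named for dorsal against ventral pieces, and Flrt2, Mapk3 and Hs6st2 between genotypes, are genes whose groups did not overlap. The members and lists were chosen with earlier results of these data known. Embryonic day 12 samples were not analysed here.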

Additional observations from a re-analysis of the deposited data

Results flagged for a closer look

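In 11 of the 60 gene-by-group sets of the 10 genes, 1 library stood apart from the rest of its group by Dixon's criterion, which chance meets in about 1 in 20 groups of normally distributed values. Groups with all but 1 library at 0 meet it by construction, so the number of such sets is not read against chance. Most involved a gene found in few libraries. Fgfr3 was 21.2 CPM in dorsal control 2 and at most 1.68 CPM in the others, and it was 110.0 CPM in axon mutant 4 with the other 4 at 0. Etv4 was 0.931 CPM in dorsal control 2, 0.0665 CPM in dorsal mutant 5, which is below the floor of 3 counts, and 33.5 CPM in axon control 2, against 0, 0 and at most 1.79 CPM in the other libraries of these groups. Spry4 was 15.8 CPM in axon mutant 2 and at most 0.0680 CPM in the other axon mutants. Axon mutant 3 stood apart for both Fgfr1, at 129.8 CPM against 9.44 to 39.6 CPM, and Fgfr2, at 212 CPM against 0 to 1.11 CPM. Among the steadier genes, Spry1 was 22.4 CPM in ventral control 3 against 74.1 to 79.4 CPM, Dusp6 was 15.9 CPM in ventral mutant 4 against 75.4 to 86.4 CPM, and Spred1 was 403 CPM in axon mutant 4 against 144 to 189 CPM. No explanation was tested.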

How the results depend on the processing

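Of 2117 fold changes of the 10 genes recomputed under an alternative, 2014 stayed within 1 standard error. Where the standard error is wide, as for Spry4 in axon pieces, a large move can stay within it, so this number does not measure stability. Of the 2117, 197 had the opposite sign, none of them in a called result. The count of called genes was 0 with each single library left out (0 to 0 in all comparisons) and under the other settings, with these exceptions. DESeq2 called 1 gene between genotypes in axon pieces (Spry4, adjusted p = 0.0221), 1 in dorsal against ventral mutants and 1 in dorsal against axon mutants (Spred1 in both). For dorsal against axon mutants, limma voom called 1 (Fgfr2, adjusted p = 0.0471) and edgeR over all 27 libraries called 1 (Spred1). The cause was not tested. Counts over all genes moved more, for example from 0 to 1233 between genotypes in axon pieces, from 0 to 532 in dorsal, from 0 to 460 in dorsal against ventral mutants and from 42 to 1571 in dorsal against axon mutants. With the replicate number as a block, 0 of the 10 genes were called, and Spred1 had a log2 fold change of -1.27 (edgeR, adjusted p = 0.308) and -1.40 (edgeR, adjusted p = 0.477) in dorsal against ventral and against axon mutants. The numbers were not shown to pair the samples beyond the labels, since deviations of same-numbered libraries correlated at -0.0195 to 0.115 over 27 pairs, although a library correlated best with its own number in 17 of 27, a hint from the data and not from the design. Another scaling (RLE) moved the median of all genes by over 0.1 in dorsal against axon controls, from 0.29 to 0.40. Depth sets a floor of 0.0883 to 0.275 CPM.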
